A study of Danio rerio with 13 samples.

Results

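A 10 kb stretch of the plus strand of zebrafish chromosome 20, positions 55780001 to 55790000 of assembly Zv9, carried the largest sum of multi-mapping hnRNP A1 crosslinks of any such stretch at the 32-cell stage. Every listed site of that stretch was taken from the tables for cDNAs with several genomic hits and from those for cDNAs with 1 hit, which gave 531 distinct nucleotides of the 546540 listed genome-wide. The stretch was chosen by its high summed multi-mapping values, so its level and rank describe the choice and were not tested.

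The study used iCLIP, in which UV light links a protein to the RNA it touches, the complexes are pulled down, and the cDNA made from the RNA stops next to the link, so that the site is known to the nucleotide. Embryos came from wild-type AB fish and were all crosslinked in vivo at 254 nm. The 4 groups were hnRNP A1 pull-downs before zygotic genome activation (preZGA, 32 cells, 3 samples) and during it (ZGA, 1000 cells, 4 samples), and IgG pull-downs of crosslinked embryos at the same stages (3 samples each). Each group was deposited as 1 pooled table per mapping class, so no spread between samples could be computed and no difference below has a replicate check.

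hnRNP A1 is an abundant RNA-binding protein with RNA recognition motifs, known for its part in splicing, in RNA transport and in the processing of some microRNA precursors. Before genome activation the embryo lives on RNA laid down by the mother, and at activation transcription from its own genome begins. A cDNA from a repeated sequence cannot be given to 1 copy, and in the multi-mapping tables it was shared over its hits, so that a value such as 0.5 is 1 cDNA shared by 2 places. An annotation and a genome sequence of Zv9 were not used here, so no gene is named for the locus.

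In the multi-mapping hnRNP A1 tables the locus held 2671 cDNAs on 345 nucleotides at preZGA, and 3303 on 419 at ZGA. This was 6.76% of all listed multi-mapping cDNAs (39530.2) at preZGA and 4.89% (of 67522.3) at ZGA, from 0.559% and 0.526% of the sites. Sites of the locus carried more cDNAs than the tables at large, with a mean of 7.74 cDNAs a site against 0.64 at preZGA and 7.88 against 0.848 at ZGA. Among 10 kb windows on 1 strand the locus ranked 1 at preZGA, ahead of a minus-strand window of chromosome 4 with 1128 cDNAs. It ranked 3 at ZGA, behind that chromosome 4 window with 3931 cDNAs and a plus-strand window of chromosome 1 with 3736.

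The crosslinks were packed into a small part of the window. Sites at most 15 nt apart were joined into blocks of at least 2 sites, which gave 15 multi-mapping blocks with all 478 hnRNP A1 multi-mapping nucleotides. The blocks covered 583 nt of the 3660 nt between the first and the last such site (55786228 to 55789887). Neither stage had a multi-mapping hnRNP A1 site upstream of the first block within the window, and no minus-strand site was listed there in any table. At the right-hand side the last site inside the window had 0.25 cDNAs at either stage, and the next sites beyond it, at 55790858 with 16.5 cDNAs at preZGA and at 55790867 with 11.8 at ZGA, opened a further 10 kb with 176 and 179 cDNAs.

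**Figure D1:**
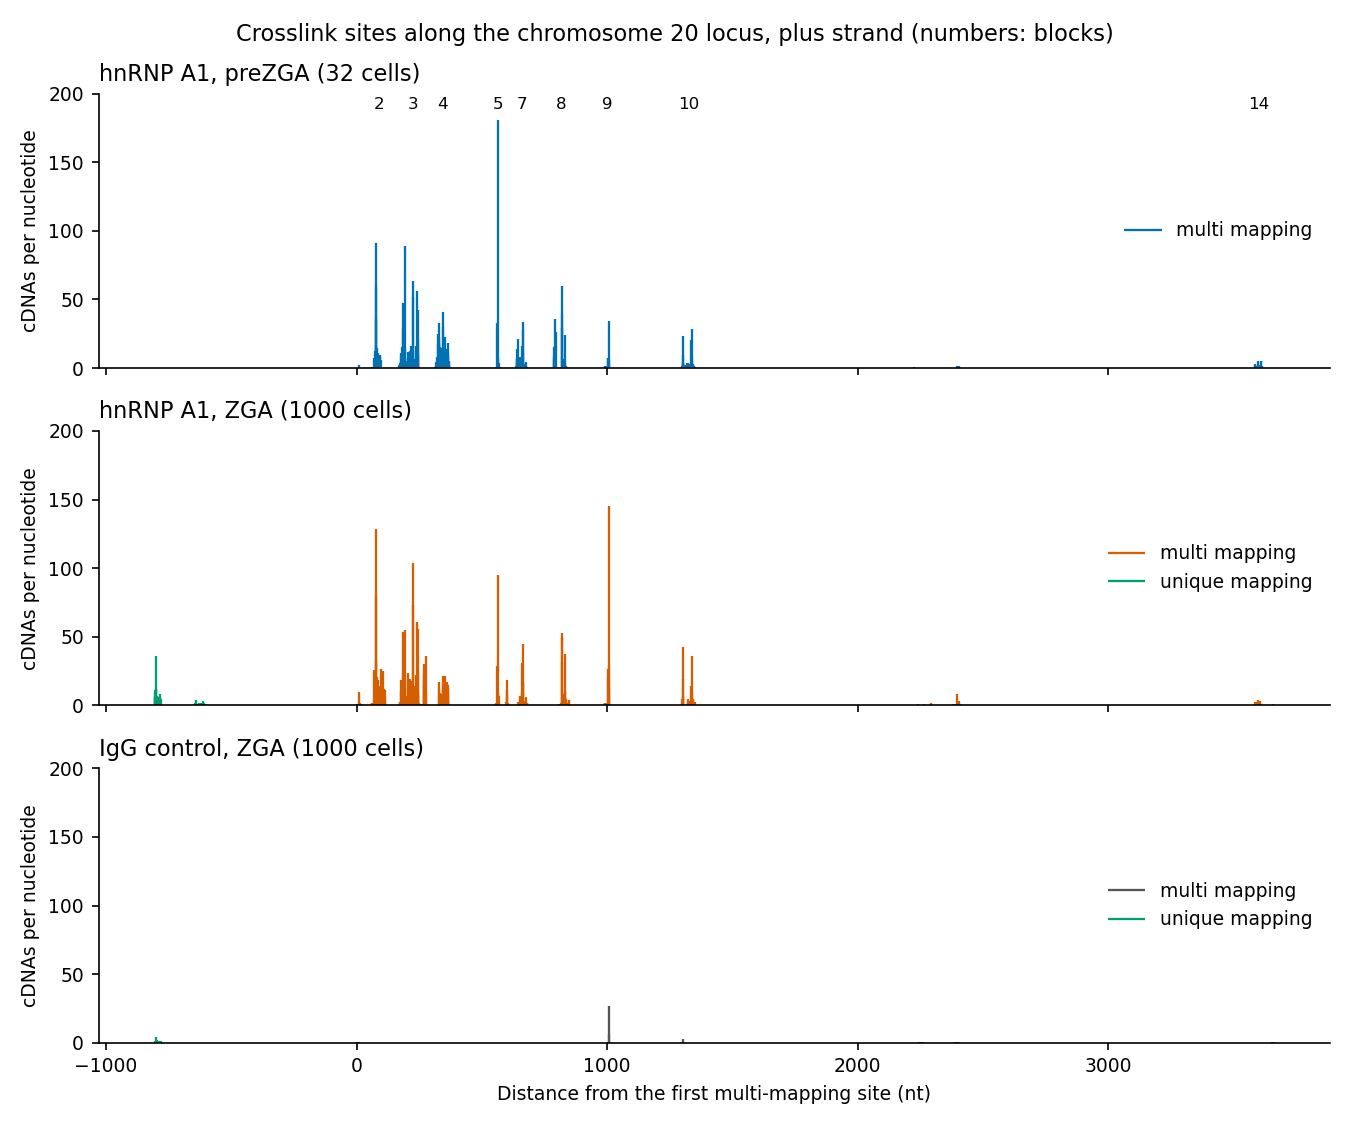
cDNAs per nucleotide (vertical axes, linear) along the locus against distance in nt from its first multi-mapping site, for hnRNP A1 at preZGA and ZGA and for IgG at ZGA, with unique-mapping sites in green and block numbers at the top. Most hnRNP A1 signal lies in blocks 2 to 10, and the unique-mapping hnRNP A1 sites lie to their left at ZGA alone. The strongest IgG nucleotide lies in block 9, with 27 cDNAs.

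Blocks 2, 3 and 4 formed the core of the locus. They lay within 309 nt (55786290 to 55786598) and held 1646 cDNAs (61.6% of the locus) at preZGA and 2115 (64.0%) at ZGA. Block 3 (55786399 to 55786511) was the strongest at either stage, with 741 cDNAs on 72 sites at preZGA and 1156 on 98 at ZGA. Block 2 (55786290 to 55786342) held 325 and 615 cDNAs, and block 4 (55786542 to 55786598) held 580 and 343. Thus blocks 2 and 3 had larger sums at ZGA and block 4 a smaller one. The ZGA table was larger as a whole. As a share of the tables the ratio of ZGA over preZGA was 1.11 in block 2, 0.913 in block 3 and 0.347 in block 4. IgG sites were nearly absent from the core, with a sum of 1.19 IgG cDNAs before activation, all in block 2, and 0 during it.

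Downstream of the core, block 5 (55786784 to 55786802) held 235 cDNAs at preZGA and 160 at ZGA, block 7 (55786866 to 55786908) held 228 and 193, and block 8 (55787016 to 55787076) held 298 and 268. Block 9 (55787217 to 55787237) went from 64.8 cDNAs at preZGA to 247 at ZGA, and block 10 (55787525 to 55787580) from 140 to 180. The 6 outer and small blocks (1, 6, 11, 12, 13 and 15) held at most 40.7 cDNAs each at ZGA, and block 14 (55789812 to 55789842) held 46.9 and 39.3. The 5 strongest blocks of each stage made up 81.6% of the locus at preZGA and 79.6% at ZGA.

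Within blocks the crosslinks ranged from single sharp nucleotides to almost even stretches. In block 5 the nucleotide 55786791 alone held 181 of the block's cDNAs at preZGA (76.9%) and 94.7 at ZGA (59.2%), and in block 9 the nucleotide 55787235 held 52.5% and 58.6%. In block 4 the strongest nucleotide, 55786574, held 7.07% and 6.26%, with a site on 94.7% of the block's 57 nt at preZGA and on 64.9% at ZGA. Block 7 was as densely occupied, with a site on 97.7% of its 43 nt at preZGA and on 81.4% at ZGA.

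The 10 strongest nucleotides held 27.7% of the locus at preZGA and 25.8% at ZGA, and 9 of the 10 were the same at both stages. Nucleotide 55786791 of block 5 ranked 1 at preZGA, with 181 cDNAs, and 4 at ZGA, with 94.7. Nucleotide 55786305 of block 2 ranked 2 at either stage, with 91.1 and 129 cDNAs, and its neighbour 55786304 ranked 5, with 60.4 and 80.6. Block 3 supplied 6 of the 10 at either stage. Its adjacent pair 55786454 and 55786455 had 63.5 and 51.5 cDNAs at preZGA and 103 and 73.5 at ZGA, whereas 55786420, rank 3 at preZGA with 88.7 cDNAs, had 55.1 at ZGA. The other 3, at 55786412, 55786468 and 55786472, had 42.3 to 56 cDNAs at preZGA and 53.8 to 61 at ZGA.

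The exchange at the top was between block 8 and block 9. Nucleotide 55787047 of block 8 was rank 6 at preZGA with 59.5 cDNAs and rank 11 at ZGA with 52.5. Nucleotide 55787235 of block 9 was rank 15 at preZGA with 34 cDNAs and rank 1 at ZGA with 145. It was also the strongest IgG nucleotide of the locus at either stage, with 6 IgG cDNAs in the earlier table and 27 in the later one. None of the other nucleotides among the 10 strongest had a listed IgG site.

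**Figure D2:**
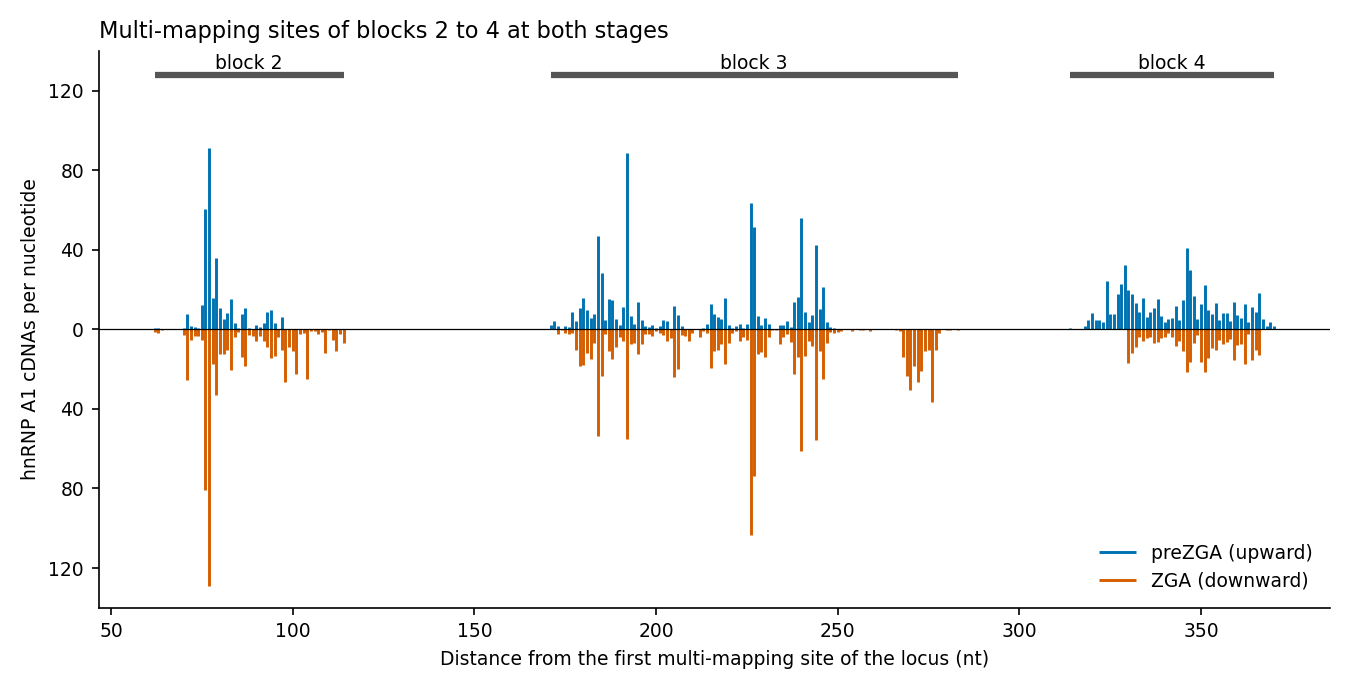
hnRNP A1 cDNAs per nucleotide in blocks 2 to 4, upward for preZGA and downward for ZGA, on a linear scale against distance in nt from the first multi-mapping site of the locus. The tall nucleotides of blocks 2 and 3 recur at both stages, while the ends of blocks 2 and 3 were listed at ZGA alone and the start of block 4 at preZGA alone.

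Sites recurred between the stages. The same nucleotide was listed at both stages for 286 sites, 82.9% of the preZGA sites of the locus (exact 95% interval 78.5% to 86.7%) and 68.3% of its ZGA sites (63.6% to 72.7%), against 27.4% and 21.3% of all multi-mapping sites of the tables. These intervals count neighbouring nucleotides as independent, so they are no test against the shares of the tables. Values in the locus were higher than in the tables at large, so the share was also taken over sites above a minimum value. Among sites of at least 0.5 cDNA the preZGA share was 82.1% in the locus and 47.0% in the whole table. This minimum does not match the values, as the median over all preZGA sites was 3 in the locus and 0.167 in the table. Outside the locus, preZGA sites listed at both stages also had higher values, with a mean of 1.57 against 0.238. The difference was thus not separated from the choice of a locus with high values. The 286 shared sites held 86.3% of the locus cDNAs at preZGA and 86.0% at ZGA. Over these nucleotides the values of the stages ran together, with a Spearman rho of 0.87 and a Pearson r of 0.89 on the log scale. This is a description over nucleotides that share blocks, copies and libraries.

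Most sites listed at 1 stage alone, 59 at preZGA and 133 at ZGA, lay next to others of their kind. Runs of at least 5 neighbouring stage-specific sites held 49 of the 59 and 99 of the 133. No such share over the whole tables is given, so whether runs are particular to the locus was not tested. These runs were singled out after the values were seen, and a site that is not listed may still have had cDNAs below the filter. At ZGA alone, 17 sites at the right-hand end of block 2 (55786326 to 55786342) held 141 cDNAs and 21 sites at the end of block 3 (55786479 to 55786511) held 209. At preZGA alone, 13 sites at the start of block 4 (55786542 to 55786557) held 140 cDNAs and 11 sites at the start of block 8 (55787016 to 55787030) held 117. Block 6, with 9 sites and 40.7 cDNAs, was listed at ZGA alone, as were blocks 12 and 15. The change between the stages was therefore partly one of which nucleotides were listed.

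As a share of the multi-mapping tables the locus was lower at ZGA, with a ratio of ZGA over preZGA of 0.724 (log2 −0.47). The direction depends on the total it is read against. The raw sums had a ratio of 1.24, and as a share of multi- and unique-mapping cDNAs added, the multi-mapping values of the locus were 0.429% at preZGA and with its unique values 0.635% at ZGA, a ratio of 1.48. Of 97 windows of 10 kb with at least 100 multi-mapping hnRNP A1 cDNAs over both stages, 25.8% had a ratio of 2 or more and 15.5% a ratio of 0.5 or less. The locus lay between these limits, and 28 windows had a lower ratio and 68 a higher one.

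The stage ratio differed between blocks. Of the 12 blocks listed at both, 4 had a share of the table at least 2-fold higher at ZGA, namely block 1 (ratio 3.69), block 9 (2.24), block 11 (4.88) and block 13 (2.07). Another 4 had a share at least 2-fold lower, namely block 4 (0.347), block 5 (0.398), block 7 (0.495) and block 14 (0.491). Of 6722 blocks built in the same way over the whole multi-mapping tables, 15.3% were at least 2-fold higher and 30.0% at least 2-fold lower, so a spread of this kind was also found across the tables. The number of higher blocks was 4 under each of the 3 scalings tried (share of the table, raw sums and share of the locus). Together they held 76.8 cDNAs at preZGA and 304 at ZGA, of which block 9 held 64.8 and 247. The lower calls rest on the scaling. With raw sums no block was 2-fold lower, and as a share of the locus 1 was. Block 4 had the lowest ratio of the 12, and its raw sum was 0.592 of that at preZGA.

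IgG sites were also compared between these blocks. All 4 of the higher blocks had IgG sites at ZGA, with 1.58 cDNAs in block 1, 34.9 in block 9, 1 in block 11 and 2.25 in block 13. None of the 4 lower blocks had an IgG site at either stage. Blocks 1, 11 and 13 held only 3.73, 0.75 and 7.5 hnRNP A1 cDNAs at preZGA, so their calls rest on few cDNAs. Of the 4 blocks in between, block 10 had IgG sites at both stages (5.57 cDNAs at preZGA and 4.71 at ZGA) and block 2 at preZGA (1.19). In both of these the raw hnRNP A1 sum was higher at ZGA and the raw IgG sum lower. Their hnRNP A1 share ratios were 0.755 in block 10 and 1.11 in block 2. No share of blocks with IgG sites over the whole tables is given, so the split was not tested. The part of the IgG signal in the stage difference was not tested. When sites up to 15 nt from an IgG site of their stage were dropped, here and in the whole tables, the share ratio of the locus was 0.932 in place of 0.724. The locus then kept 2221 cDNAs at preZGA and 2917 at ZGA, and the totals of the tables changed too. Block 2 had IgG sites at preZGA alone, so sites of that block were dropped at preZGA only. The ratio is thus no measure of the part of IgG.

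**Figure D3:**
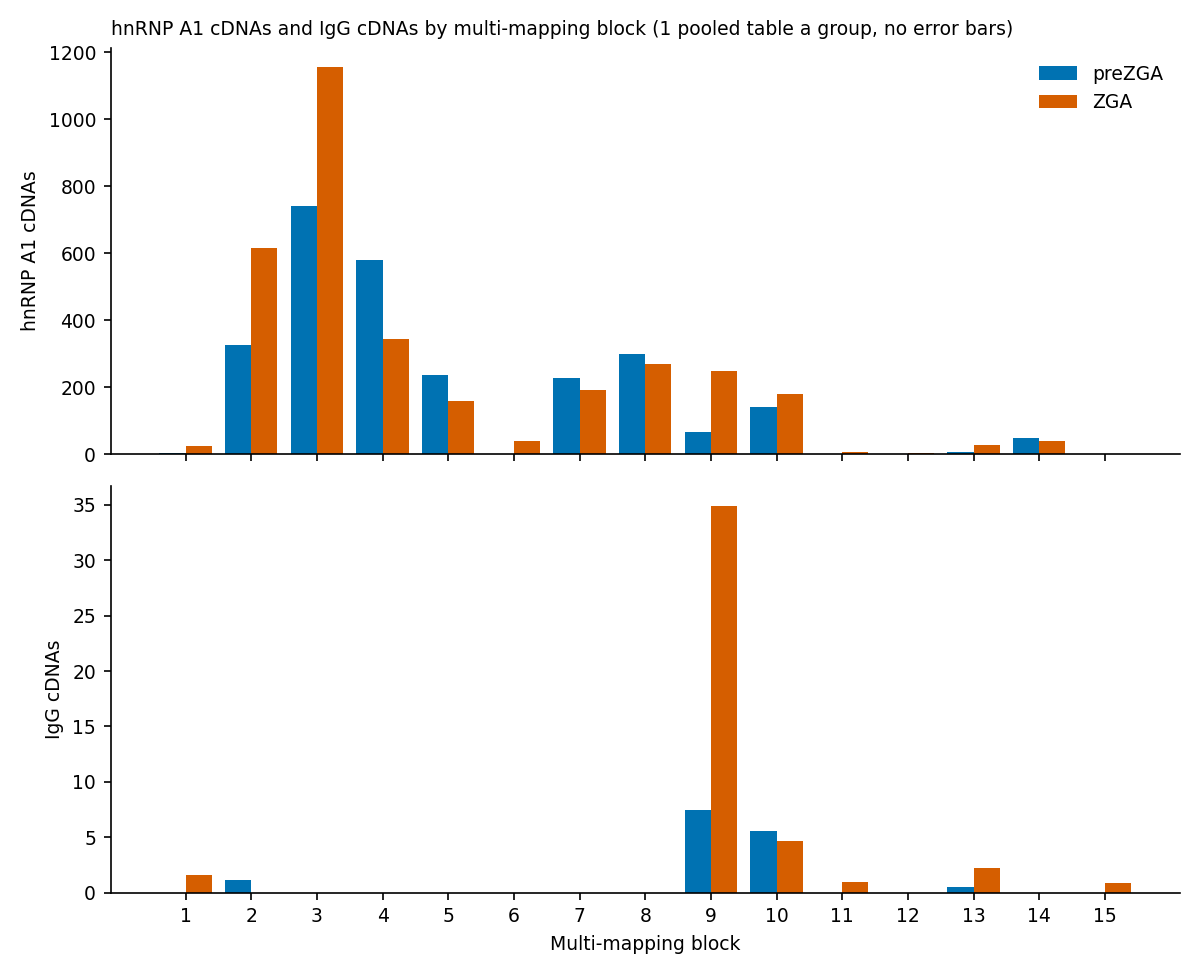
Sums of hnRNP A1 cDNAs (upper bars) and IgG cDNAs (lower bars) in each of the 15 multi-mapping blocks at preZGA and ZGA, on linear axes that start at 0. In these sums, not scaled to the size of the tables, blocks 2 and 3 are taller at ZGA and block 4 is taller at preZGA. IgG cDNAs reach 34.9 in block 9 and are absent from blocks 3 to 8.

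At single nucleotides, 39 of the 286 shared sites (13.6%) had a share at least 2-fold higher at ZGA, beside 12.3% of all 16930 multi-mapping sites listed at both stages. A share at least 2-fold lower was found at 58 (20.3%), beside 27.0% of all. The higher share is near the background and the lower one below it, and the median share ratio was 0.826 in the locus against 0.712 over all sites. In raw cDNAs, 205 of the 286 sites were higher at ZGA, 73 lower and 8 equal.

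Lower sites were most numerous in block 4, where 22 of 37 shared sites had a share at least 2-fold lower and 0 at least 2-fold higher, and in block 7, with 13 lower and 2 higher of 34. In block 2 the split was 1 lower and 7 higher of 31, and in block 3 it was 11 lower and 7 higher of 70. Among sites with at least 1 cDNA at each stage, the highest ratio was at 55787060 of block 8, from 1.39 to 10.7 cDNAs (share ratio 4.5). It was followed by 55786465 of block 3 (1 to 6.5), 55786794 of block 5 (1.61 to 9.35), 55786457 of block 3 (2 to 11.5) and 55787234 of block 9 (2.5 to 13.5). The lowest ratio was at 55786405 of block 3, from 8.67 to 2 cDNAs (share ratio 0.135). Then came 55786562 (15.5 to 6) and 55786569 (5 to 2) of block 4, 55786303 of block 2 (12.3 to 5.16), which lies next to the strong pair of that block, and 55786576 of block 4 (16.5 to 7). Higher and lower ratios thus lay within the same block.

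**Figure D4:**
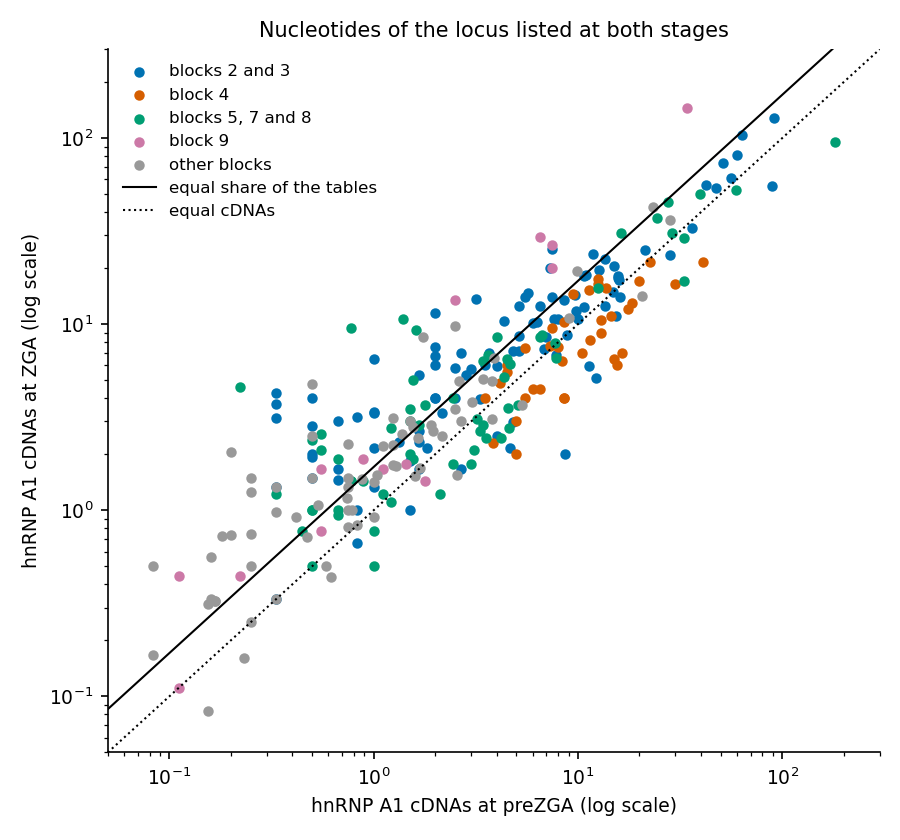
hnRNP A1 cDNAs at ZGA against those at preZGA for the 286 nucleotides listed at both stages, on log axes, with colours for groups of blocks, a solid line of equal share of the tables and a dotted line of equal cDNAs. Most points lie above the dotted line (205 of 286), the points of block 4 lie mostly below the solid line, and the highest point of block 9, with 145 cDNAs at ZGA, lies above it.

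IgG signal at the locus was low beside hnRNP A1. The multi-mapping IgG tables listed 15 cDNAs over 15 nucleotides at preZGA and 45.6 over 28 at ZGA. The hnRNP A1 sum was 178 times that at preZGA and 72.4 times that at ZGA, against 20.9 and 18.1 over all multi-mapping sites outside the locus. The locus was chosen by its high multi-mapping sum, so a fold above that outside follows in part from the choice and was not tested. The IgG tables were smaller than the hnRNP A1 tables, and as a ratio of shares of each table the fold was 7.97 at preZGA and 3.84 at ZGA. Within IgG the locus was 0.847% of the cDNAs at preZGA and 1.27% at ZGA. The 10 kb window still ranked 13 and 7 among the IgG windows.

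An IgG site lay on the same nucleotide for 13 of the 345 hnRNP A1 sites at preZGA (3.77%, exact 95% interval 2.02% to 6.36%) and for 22 of the 419 at ZGA (5.25%, 3.32% to 7.84%). Over all multi-mapping sites the shares were 2.61% and 3.54%. The intervals count neighbouring nucleotides as independent, although these share blocks, cDNAs and libraries, so they are no test against the shares over all sites. IgG cDNAs were 11.5% of the hnRNP A1 cDNAs of block 9 at preZGA and 14.1% at ZGA, and 3.99% and 2.62% in block 10. Besides 55787235, the strongest IgG nucleotides were 55787532 (3.91 cDNAs at preZGA and 2.98 at ZGA) and 55787530 (1.41 and 0.915) of block 10, and 55787236 (0.5 and 6.5) of block 9. At ZGA the multi-mapping IgG signal of the locus was thus mostly block 9, with 34.9 of its 45.6 cDNAs.

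Almost none of the signal was uniquely mapped. The unique-mapping hnRNP A1 tables, which held 583691 cDNAs at preZGA and 480927 at ZGA, listed nothing in the locus at preZGA (0 sites) and 178 cDNAs over 43 sites at ZGA, 0.037% of that table (exact 95% interval 0.0318% to 0.0429%, for counting error only). Unique cDNAs were thus 0% of the hnRNP A1 cDNAs of the locus at preZGA and 5.11% at ZGA, against 93.7% and 87.7% over the whole tables. The locus was chosen by its high multi-mapping sum, so a low unique share follows in part from the choice and was not tested. For IgG they were 3 of 18 cDNAs at preZGA (16.6%) and 13 beside 45.6 at ZGA (22.2%).

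Multi-mapping and unique-mapping sites of the locus lay at different places. No nucleotide of the locus was listed in both mapping classes, and the unique sites lay 598 nt or more to the left of the first multi-mapping block. Across the genome 1.86% of the multi-mapping hnRNP A1 nucleotides at preZGA and 2.31% at ZGA were also listed as unique. Little overlap was thus the rule over the tables too, and its absence is not particular to the locus. At preZGA the locus had no unique hnRNP A1 site, so none of its hnRNP A1 nucleotides could overlap.

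The unique sites at ZGA made up a pair of blocks. The stronger one (55785422 to 55785446, 25 nt) held 143 cDNAs over 20 sites, with 36 at 55785427, 12 each at its neighbours 55785426 and 55785428, 11 at 55785423 and 8 at 55785442. IgG was present there too, with 13 cDNAs over 9 sites at ZGA (9.09% of hnRNP A1) and 4 of them at 55785428, and with 1 cDNA at each of 3 sites at preZGA, where no hnRNP A1 site was listed. The weaker block (55785579 to 55785629, 51 nt) held 35 cDNAs over 23 sites, at most 4 on a nucleotide, and had no IgG site.

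No internal repeat stood out by equal values. For pairs of sites 16 to 5000 nt apart, at most 7 pairs had values equal within 1% at any distance, at 161 nt for preZGA and at 19 and 146 nt for ZGA. That is 2.03% of the preZGA sites and 1.67% of the ZGA sites, and the leading distance differed between the stages. No distance thus joined more than a few sites, and no repeat unit was named. Only equal values were counted and no sequence was used, so a repeat whose copies had unequal values would be missed.

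Copies elsewhere were plain, since a cDNA shared by several places leaves the same fraction at each. Equal values (within 0.001 cDNA) at a constant shift or in mirror order were counted for each block, and a place was called equal where at least 80% of the sites of a block of 5 or more sites had such a partner. Such partners hold parts of the same cDNAs and are no independent signal, and a match of values is no sequence alignment. Over the locus as a whole, 91 of the 345 preZGA sites and 111 of the 419 ZGA sites had an equal partner at 1 exact mirror on the minus strand of chromosome 5. The minus strand of chromosome 20 followed with 85 and 105, another place on chromosome 5 with 76 and 100, and then 7 places on chromosomes 4 and 5 with 42 and 38 each. With each block at its own best shift within 200 nt, a setting added once the data had been seen, the leading chromosome 5 place had 168 and 208 equal sites, since blocks 10, 11, 13 and 14 match there 1 nt off. The 7 places then had 97 to 101 at preZGA and 94 to 95 at ZGA, and the chromosome 20 stretch kept its 85 and 105.

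By block the locus was a mosaic. Block 7 was equal at all of its sites, at either stage, at 8 places elsewhere, 6 on chromosome 4 and 2 on chromosome 5. Of its values, 30 of 42 at preZGA and 25 of 35 at ZGA were whole multiples of 1/9, the fraction left by a cDNA with 9 places. The 228 cDNAs listed in the locus for preZGA were thus part of 2051 over those 9 places. One of them, chromosome 4 plus 43985450 to 43985492, lies in the third strongest 10 kb window at preZGA and the fourth at ZGA. Another, chromosome 4 minus 43924365 to 43924407, lies in the fourth strongest window at preZGA.

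Blocks 5, 6 and 8 were equal at 1 place only, the minus strand of chromosome 5 (1192572 to 1192590, 1192540 to 1192550 and 1192298 to 1192358). There, 28 of 29 sites of block 8 at preZGA and all sites otherwise had equal values. This does not give the number of places that shared each cDNA. Of the 9 values of block 6 at ZGA, 6 were multiples of 1/9 and not of 1/2, 1/3 or 1/4. Of the 12 values of block 5 at preZGA, 4 were multiples of 1/18 and not of 1/9 or 1/2. Nucleotide 55786791 had 181 cDNAs at preZGA and 94.7 at ZGA, and so had its partner at 1192583. Nucleotide 55787047 had 59.5 and 52.5, and so had 1192327. Each of these values was found at 1 nucleotide elsewhere in the table of its stage, so the strongest preZGA nucleotide of the locus is 1 of an equal pair.

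Block 10 onward was also held by a mirrored stretch of the minus strand of chromosome 20, to the left of the 10 kb window. Block 10 had equal values there (55778224 to 55778279) at 45 of 45 sites at preZGA and 38 of 38 at ZGA, and blocks 11 to 15 followed in the same mirror order, down to 55775917. Opposite blocks 1 to 9 this stretch had 0 listed sites in any of the 4 multi-mapping tables. Block 13 at both stages and block 11 at ZGA had 4 places in all, the locus, the chromosome 20 mirror and 2 on chromosome 5, and every value of these blocks was a whole multiple of 1/4. Block 14 was also equal on the minus strand of chromosome 4 (61296876 to 61296906), within the 10 kb window that ranked 1 at ZGA. Block 10 was equal at 2 places elsewhere at preZGA and at 10 at ZGA. These numbers rest on the cut-off for an equal place. The places called at ZGA alone had equal values at 34 or 35 of the 45 sites at preZGA. That is 75.6% or 77.8%, just under the cut-off, against 94.7% or 100% at ZGA. The numbers thus do not show that the places sharing block 10 differed between the stages.

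Block 9 was composite. Its left-hand sites (55787217 to 55787226 at preZGA, to 55787229 at ZGA) held 6.78 and 10.9 cDNAs, and all 9 and all 12 values were whole multiples of 1/9. Its right-hand sites, from 55787232, held 58 and 236 cDNAs, and all 5 and all 6 values were whole multiples of 1/2. The block was split so after its values were seen. All left-hand sites had equal partners at 6 of the leading places at preZGA and at 7 at ZGA, while at most 1 right-hand site did at any of them. The strong nucleotide 55787235 had no listed nucleotide of equal value anywhere else at either stage. Its cDNAs were multi-mapping, so their other hits were not found by equal values. Nearly all IgG cDNAs of the block, 7 at preZGA and 34.5 at ZGA, lay on the right-hand sites.

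**Figure D5:**
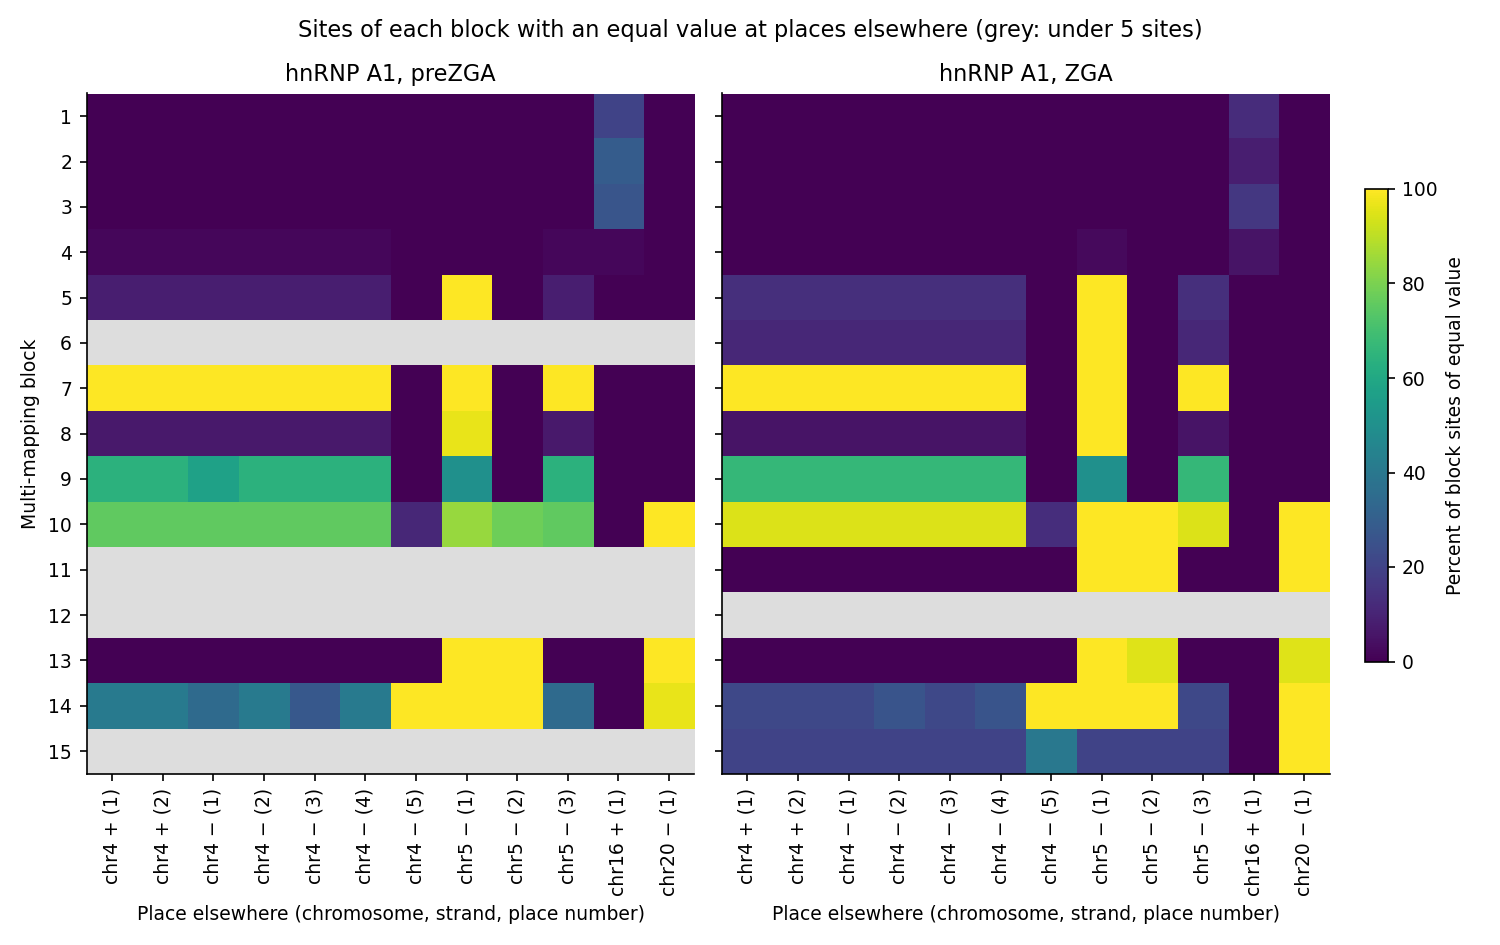
Percent of each block's sites (rows, blocks 1 to 15) with an equal value at each of 12 places elsewhere (columns, by chromosome and strand), for hnRNP A1 at preZGA and ZGA, from 0 in dark blue to 100 in yellow, with blocks of under 5 sites in grey. Block 7 is at 100% at 8 places, blocks 5 and 8 at 96.6% or more at 1 place on chromosome 5, blocks 10, 13 and 14 at 95.2% or more on the minus strand of chromosome 20, and blocks 1 to 4 at 29.0% or less at each of the 12.

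Blocks 1 to 4, the core and the small block before it, had no place elsewhere at which 80% of the sites were equal. Block 1 had 2 equal sites of 5 at its best place at preZGA and 4 of 16 at ZGA. The best for the others were 29.0% of block 2 and 26.4% of block 3 at preZGA, and 8.33% and 16.3% at ZGA. In block 4 at most 9.26% and 5.41% were equal, although 47 of its 54 values at preZGA were whole multiples of 1/2. Of the leading places compared by block, only a plus-strand stretch of chromosome 16 (16405395 to 16405724) had equal values in blocks 1 to 3. It ended opposite the end of block 3 and left out block 4. In block 1 it had 1 equal site of 5 at preZGA and 2 of 16 at ZGA, fewer than the best place of that block.

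That stretch held 755 cDNAs at preZGA against 1070 in the matching span of the locus, and 1287 against 1795 at ZGA. At preZGA 71 positions were listed in both, of which 28 had equal values and 64 lay within 2-fold. At ZGA it was 109 positions, 20 equal and 96 within 2-fold, with a Spearman rho of 0.97 at either stage, a description over positions that share cDNAs. The strong nucleotide 55786305 had 91.1 cDNAs at preZGA beside 112 at its partner 16405518, and 129 beside 166 at ZGA. At 55786420 the values were 88.7 and 88.7 to 3 digits at preZGA, and 55.1 against 106 at ZGA. Opposite 55786454, 55786455 and 55786468 no site was listed on chromosome 16 at either stage, although the locus had 51.5 to 63.5 cDNAs there at preZGA and 61 to 103 at ZGA. The chromosome 16 stretch also had unique-mapping hnRNP A1 signal, 12 cDNAs over 10 sites before activation and 73 over 30 during it, where the core of the locus had none.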

How the data were processed

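The unit analysed was the cDNA value of each crosslinked nucleotide. The authors deposited, per the labels, significant sites of summed replicates, and per the file headers the filter was a false discovery rate of 0.01 with 100 permutations and 15 nt neighbourhoods, on Zv9 with Ensembl release 72. The submitters' processing notes name CASAVA 1.4 and Zv9, and no source used here gives the aligner. The deposited value column is a cDNA count signed by strand, fractional in some tables, and its absolute value was used. Unique tables hold whole counts and multi-mapping tables fractions of cDNAs, per the deposited values. The treatment of duplicate reads is likewise not given, and the intervals are for counting error alone.

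The 26 files held 8 distinct tables over 4 groups, as replicates of a group carried identical copies, each read once. The labels speak of 3 summed replicates, while the hnRNP A1 table at ZGA names 4 libraries, as many as there are samples. With 1 pooled table a group there was no model, no p-value and no leaving out of replicates. A share ratio is the percent of a table's cDNAs at ZGA over that at preZGA.

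Blocks joined sites at most 15 nt apart. Names were taken from lists. Per stage these held the 10 strongest multi-mapping nucleotides, the 5 strongest unique and IgG ones and the top of the 5 strongest blocks. Others held the 5 highest and 5 lowest stage ratios from 1 cDNA up, and the 5 leading places of equal values. Weak IgG nucleotides of these lists were not all printed. The locus, the rules and the lists were chosen with earlier results of these data known. The matching code was tested on simulated data. Scripts ran in Python 3.11.15 with scipy 1.17.1, pandas 2.3.3, numpy 2.4.6 and, for plots, matplotlib 3.10.9.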

Additional observations from a re-analysis of the deposited data

How the results depend on the processing

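Of 58 alternative values, 3 reversed direction, 23 moved and 32 did neither. A count moved if it changed by over 1.5 times, and the internal repeat distance if it differed at all. Any other value moved if it left its 95% binomial interval. For multi-mapping sums this interval treats rounded fractional values as independent counts, so there it only sorts the settings and is no test. The cause was not tested beyond what each setting removes or divides by. The log2 share ratio of the locus between the stages (−0.47) turned to 0.49 over multi and unique totals added, 0.57 with unique and multi values of the locus added, and 0.31 with raw sums. It moved to −0.60 for sites of at least 1 cDNA, −0.09 with numbers of sites and −0.10 without sites near IgG sites, and lay between −0.52 and −0.45 in the other 4 settings. Of these, the setting of blocks only could not differ, as the blocks hold all hnRNP A1 multi-mapping sites of the locus. With no unique hnRNP A1 site at preZGA, its unique share there could not change either. Nor could the preZGA share of the 10 strongest nucleotides with unique values added. The hnRNP A1 fold over IgG, 178 and 72.4, was 23 and 15 by numbers of sites and 7.97 and 3.84 by shares of tables. The 15 blocks became 9 and 7 with merging over 50 and 100 nt. The leading internal distance, 161 nt, became 21 nt with a tolerance of 10% (14 pairs), 19 nt at ZGA, and 3413 nt by autocorrelation (0.61), which there rests on an overlap of 192 nt. The share of preZGA sites listed at ZGA was 91.9% within 5 nt. At a fold of 4, 9 sites were higher and 5 lower, and 37 were lower when scaled to the median ratio. Unique sites were 9.31% of the hnRNP A1 sites of the locus at ZGA. By position alone, 156 and 186 sites had a partner at the leading place on chromosome 5, and 168 and 208 had an equal one with each block at its own best shift. Blocks at least 2-fold lower at ZGA numbered 0 with raw sums and 1 as a share of the locus. The block scalings and block shifts were chosen after seeing the data. No paired analysis was possible because each group was 1 pooled table. The tables list only significant sites, so a site absent from one is not shown to lack cDNAs, and depth per library is unknown.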
